A study of Mus musculus with 28 samples.

Results

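The subunits of the transcription factor AP-1 and 2 further genes of the immediate early response were followed in mouse small-intestinal organoids after 24 h with single ligands of the Tgfb superfamily. The 9 genes were chosen by name: Fos (ENSMUSG00000021250), Fosb (ENSMUSG00000003545), Fosl1 (ENSMUSG00000024912), Fosl2 (ENSMUSG00000029135), Jun (ENSMUSG00000052684), Junb (ENSMUSG00000052837), Jund (ENSMUSG00000071076), Egr1 (ENSMUSG00000038418) and Atf3 (ENSMUSG00000026628). All 9 were found among the 29413 genes of the table on BMP ligands and among the 55416 genes of the table on Tgfb. All 9 passed the minimum for testing among the BMP samples. Among the Tgfb samples 8 passed, and Fosb stayed under it.

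AP-1 is a dimer of a Fos and a Jun protein, or of 2 Jun proteins, that binds short palindromic sites near many genes of growth, migration and epithelial repair. Fos, Fosb, Egr1 and Atf3 are textbook immediate early genes, which are switched on within minutes of a growth factor or stress signal through MAP kinases and fall again within hours. Bmp and Tgfb ligands act through receptor kinases that phosphorylate SMAD proteins, and also reach MAP kinases by other routes. In the intestine the Jun proteins are known for their part in crypt cell growth and in wound repair. A sample taken after 24 h shows the later state and not the first burst.

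Organoids, which are epithelial cultures grown from crypts in a gel matrix, came from wild-type C57BL/6 mice and were kept in ENR medium, the standard organoid medium with EGF, Noggin and R-spondin. The BMP table held 4 untreated controls, 4 samples with BMP2, and 3 each with BMP3, BMP4, BMP5 or BMP7, all recombinant ligands at 500 ng/ml for 24 h. The Tgfb table held 3 untreated controls and 3 samples with Tgfb at 500 ng/ml for 24 h. The mesenchymal samples of the series were not used here.

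Values in the BMP table are normalized counts, in which the reads of a gene are scaled by the size factor of their sample, and they rest on 21356911 to 24781522 recovered reads per sample. Values in the Tgfb table are TPM, which are scaled by transcript length and library, and their depth is unknown. The 8 epithelial markers examined (such as Epcam and Cdh1) were all expressed, with summed levels of 123550 to 139630 normalized counts in controls and 683720 to 874140 with BMP2, sums carried mostly by Krt8, Krt18 and Krt19. With BMP2 7 of the 8 rose, and Cdx2, a factor of intestinal identity, fell (log2 -0.43, adjusted p = 0.0309). The part of these changes in the results was not tested. Of 9 mesenchymal markers, 7 were listed in the BMP table and 1 passed the minimum. The sums were 13.2 to 47.9 normalized counts in controls, 42.2 to 85.1 with BMP2 and at most 122 in any sample, and Col3a1 and Des were at 0 in controls. Of 9 immune markers, 3 passed, with sums of 97.5 to 133 in controls and up to 268 with BMP4. Of 5 endothelial markers, 2 passed, with sums of 588 to 785 in controls and 870 to 1040 with BMP2, while Cdh5 and Kdr were at 0 in controls. In bulk samples, fewer cells of a type and less RNA per cell cannot be told apart. The labels do not say whether the samples of a group came from separate cultures, so p-values measure the spread between these samples only, which may be technical.

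The DNA just before the start sites is shown for 5 genes: Fos, Fosl2, Junb and Atf3, the 4 that were higher with each of BMP2, BMP4, BMP5 and BMP7, and Jun, which was higher with BMP2, BMP5 and BMP7 but not with BMP4. The sequences are from RefSeq on build GRCm38.p6, matched by symbol, and give the 250 bases before the start site, 5′ to 3′ on the gene's strand. Of the 9 genes, 7 had an entry. Capitals mark TGACG on either strand, the core of sites bound by the CREB and ATF family, and the related TGACNTCA. The windows lie at chr12:85473640-85473889 (+ strand) for Fos, chr5:32136222-32136471 (+ strand) for Fosl2, chr8:84978749-84978998 (- strand) for Junb, chr1:191183334-191183583 (- strand) for Atf3 and chr4:95052223-95052472 (- strand) for Jun.
Fos: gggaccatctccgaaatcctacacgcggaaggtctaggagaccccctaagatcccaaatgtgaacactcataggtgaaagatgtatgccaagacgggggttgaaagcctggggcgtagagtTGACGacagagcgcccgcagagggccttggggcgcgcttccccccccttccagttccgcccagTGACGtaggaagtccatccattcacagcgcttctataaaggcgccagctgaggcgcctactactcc
Fosl2: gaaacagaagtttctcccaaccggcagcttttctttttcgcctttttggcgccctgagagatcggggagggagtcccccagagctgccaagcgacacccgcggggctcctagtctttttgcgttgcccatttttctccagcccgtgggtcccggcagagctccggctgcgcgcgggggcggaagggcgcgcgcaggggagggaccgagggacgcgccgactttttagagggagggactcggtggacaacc
Junb: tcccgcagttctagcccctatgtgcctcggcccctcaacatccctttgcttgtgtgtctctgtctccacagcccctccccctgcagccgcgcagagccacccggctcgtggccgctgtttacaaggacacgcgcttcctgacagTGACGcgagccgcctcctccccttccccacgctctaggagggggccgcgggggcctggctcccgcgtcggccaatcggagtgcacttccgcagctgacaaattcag
Atf3: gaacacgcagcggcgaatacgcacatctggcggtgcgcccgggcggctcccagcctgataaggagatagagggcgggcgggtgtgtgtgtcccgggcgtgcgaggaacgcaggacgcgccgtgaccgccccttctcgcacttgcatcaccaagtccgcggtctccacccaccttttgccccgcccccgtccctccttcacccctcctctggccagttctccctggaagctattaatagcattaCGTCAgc
Jun: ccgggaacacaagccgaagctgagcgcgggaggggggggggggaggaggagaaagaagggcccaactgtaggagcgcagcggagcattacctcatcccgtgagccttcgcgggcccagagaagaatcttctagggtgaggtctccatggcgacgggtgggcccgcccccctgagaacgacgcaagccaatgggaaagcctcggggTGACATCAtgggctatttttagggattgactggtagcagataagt
TGACG was present in Fos, starting 129 and 66 bases before the start site, in Fosb 60 bases before it, in Junb 106 bases before it, and on the other strand in Atf3, from 7 to 3 bases before it. It was not found in Fosl2, which rose with all 4 ligands, nor in Jund. With all samples used, Fosb, which holds it, passed with BMP2 and not with BMP4, BMP5 or BMP7. The part of the motif in these changes was not tested. The motif occurs in 17.9% of 32526 promoter windows of the same length. Jun held TGACATCA from 45 to 38 bases before the start, a match to TGACNTCA, which is in 7.43% of windows and includes TGACGTCA as 1 of its forms (1.56%). The classical AP-1 site TGANTCA (6.73% of windows), TGACGTCA and the CArG box bound by SRF (1.48%) had no match in the 7 windows, on either strand. GGCGCC, a site bound by BMP-type SMADs in vitro (9.65% of windows), was matched in Fos, Fosb and Fosl2. The other SMAD motifs searched, GTCTAGAC (0.169% of windows) and CAGACA (17% of windows), had no match in the 7 windows. A match describes letters only, and the absence of one in this window says nothing of sites elsewhere.

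BMP2 raised the whole set. All 9 genes rose with BMP2, by 1.72 to 3.76 on the log2 scale, with a median of 3.20 against -0.03 over all genes tested. With BMP4 5 rose (Fos, Fosl2, Junb, Jund and Atf3), with BMP5 7 rose, with BMP7 8 rose, and with BMP3 none passed. None of the 9 fell with any ligand. These ligands changed much of the transcriptome, so the counts are read against the share of all 14746 genes called higher. That share was 36.8% with BMP2 and 33.7% with BMP4. It was lower at 16.5% with BMP5 and 19.2% with BMP7, and 0% with BMP3. The share called lower was 38.4% and 31.4% with BMP2 and BMP4, and 9.87% and 13.2% with BMP5 and BMP7. Without overlap between ligand and control samples were 9 of the 9 genes with BMP2 (67.6% of all genes), 5 with BMP4 (64.8%), 6 with BMP5 (35.7%) and 6 with BMP7 (42.4%). The medians of the 9 genes were 0.98 with BMP4, 1.52 with BMP5 and 1.57 with BMP7, beside 0.04, -0.03 and -0.05 over all genes. All of these comparisons use the same control samples, so they are not independent of each other. Changes were tested with limma, adjusted by Benjamini-Hochberg over all genes with a threshold of 0.05, on log2(value + 1).

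The share of calls that were higher depended on the scaling of the table. Of the genes called, 48.9% were higher with BMP2 and 51.7% with BMP4, and 31.8% and 31.1% when every sample was scaled to the same total, which moved the median of all genes to -0.48 and -0.35. With BMP5 62.5% of the calls were higher, or 49.8% by quantile normalization. With BMP7 59.4% were higher, or 48.7% at equal totals. The number of the 9 genes higher with BMP2, BMP4 and BMP5 was the same under both scalings, and with BMP7 it was 8 at equal totals and 7 by quantile normalization.

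**Figure D1:**
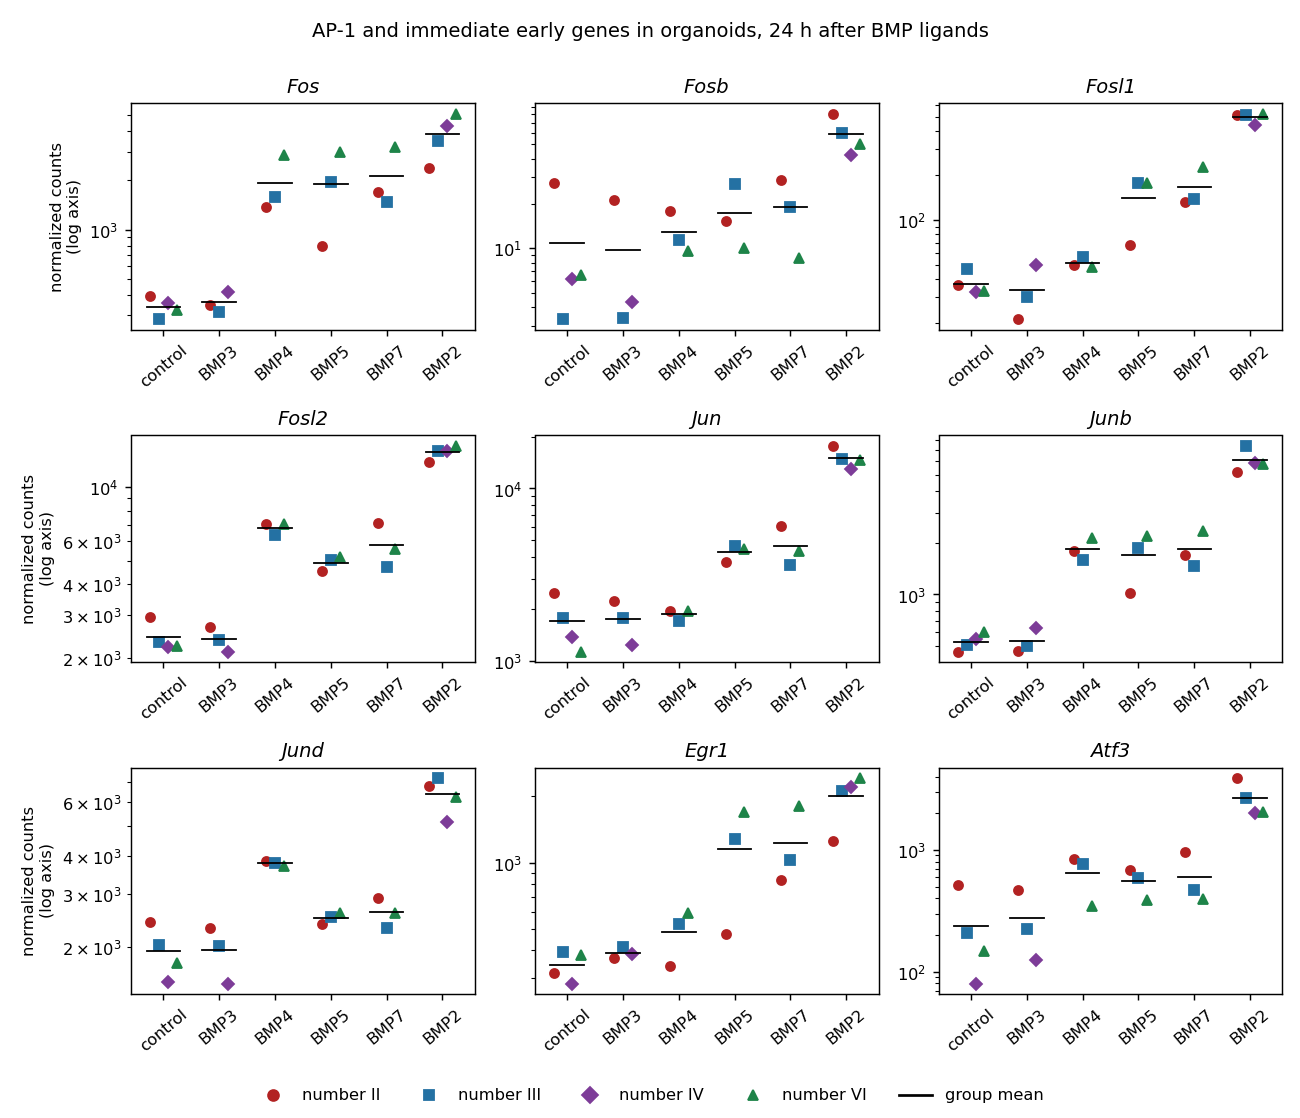
Normalized counts of each gene (log axes, a separate range per gene) in the 20 samples of the BMP table, by ligand; each point is a sample, its shape and color give the replicate number in the labels, and the black line is the group mean. The BMP2 points are highest in all 9 panels by mean, BMP3 lies over the control points, and BMP4 lies near the control for Jun but not for Fos or Junb.

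Among the Fos proteins, Fos itself is the inducible subunit that the family is named for. Its normalized counts in controls were 391, 283, 358 and 321 in replicates II, III, IV and VI. With BMP2 they were 2380, 3510, 4330 and 5120 in the same order. With BMP4 they were 1370, 1590 and 2860 in replicates II, III and VI. Every BMP2 and BMP4 sample was above every control. Fos was at 796, 1950 and 2970 with BMP5 and at 1690, 1480 and 3190 with BMP7, again without overlap with controls. The log2 changes were 3.45 with BMP2 (SE 0.340, adjusted p = 2.89e-08), 2.45 with BMP4 (SE 0.368, adjusted p = 1.11e-05), 2.31 with BMP5 (SE 0.368, adjusted p = 0.000134) and 2.57 with BMP7 (SE 0.368, adjusted p = 3.17e-05).

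Fosl1 (Fra-1), a Fos protein without the strong activation domain of Fos and linked to migration and repair, had the widest range of group means of the 9 over the 5 BMP ligands, at 3.91 on the log2 scale. Controls held 36.4, 46.5, 32.8 and 33.0 normalized counts in replicates II, III, IV and VI. BMP2 samples held 510, 515, 438 and 523. BMP4 samples held 49.8, 55.9 and 47.9. The BMP4 values were all just above the highest control, and the difference did not pass (log2 0.46, adjusted p = 0.193). BMP5 gave 68.2, 177 and 177 and BMP7 gave 133, 139 and 227. The changes were 3.71 with BMP2 (SE 0.282, adjusted p = 7.45e-10), 1.78 with BMP5 (adjusted p = 0.000258) and 2.10 with BMP7 (adjusted p = 3.58e-05).

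Fosl2 (Fra-2), its close relative, had a narrower spread. Controls were at 2940, 2320, 2220 and 2240 normalized counts in replicates II, III, IV and VI, and BMP2 samples at 12600, 14000, 14000 and 14700. BMP4 samples were at 7030, 6360 and 7060, BMP5 samples at 4540, 5020 and 5150, and BMP7 samples at 7120, 4690 and 5590. None of these overlapped the controls. Fosl2 rose by 2.52 with BMP2 (SE 0.117, adjusted p = 1.42e-12), 1.50 with BMP4 (adjusted p = 1.05e-08), 1.02 with BMP5 (adjusted p = 1.03e-05) and 1.24 with BMP7 (adjusted p = 8.41e-07), all on the log2 scale. Fosb, the other inducible Fos protein, was scarce. It had 27.5, 3.32, 6.21 and 6.61 normalized counts in controls and 80.6, 60.1, 42.3 and 50.6 with BMP2, in replicates II, III, IV and VI, and rose by 2.67 (SE 0.565, adjusted p = 0.000308). With BMP4 (9.57 to 17.8), BMP5 (10.0 to 26.9) and BMP7 (8.66 to 29.0) the Fosb values fell within the control range, apart from BMP7 replicate II, and no change passed (adjusted p = 0.425, 0.299 and 0.227). Fosb passed with BMP7 when control replicate II was left out (log2 1.54, adjusted p = 0.0455) and with BMP5 when all samples numbered II were left out (log2 1.50, adjusted p = 0.0378).

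Jun, the principal partner of Fos and able to pair with itself, rose with BMP2, BMP5 and BMP7 and stayed within the control range under BMP4. Controls held 2470, 1780, 1380 and 1130 normalized counts in replicates II, III, IV and VI. With BMP2 they were 17700, 14800, 12900 and 14600. With BMP4 they were 1940, 1710 and 1950, all inside the control range. BMP5 gave 3730, 4620 and 4450, and BMP7 gave 6060, 3570 and 4360, above every control. Jun rose by 3.20 with BMP2 (SE 0.212, adjusted p = 1.15e-10), 1.39 with BMP5 (adjusted p = 0.000181) and 1.49 with BMP7 (adjusted p = 6.67e-05) on the log2 scale. For BMP4 the difference was 0.20 (95% interval -0.28 to 0.68, adjusted p = 0.454), and its sign turned to -0.20 with the same total in every sample and to -0.065 by quantile normalization.

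Junb, which can oppose Jun at some promoters, rose with all 4 of these ligands. Controls were at 464, 505, 549 and 603 normalized counts in replicates II, III, IV and VI, and BMP2 samples at 5210, 7400, 5900 and 5810. BMP4 samples were at 1800, 1600 and 2140, BMP5 samples at 1020, 1860 and 2190, and BMP7 samples at 1700, 1460 and 2360. The control range was left by every one of these samples. The log2 changes were 3.51 with BMP2 (SE 0.199, adjusted p = 1.48e-11), 1.79 with BMP4 (adjusted p = 7.36e-07), 1.61 with BMP5 (adjusted p = 2.23e-05) and 1.77 with BMP7 (adjusted p = 5.47e-06).

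Jund, the subunit present in resting cells, moved least among the 9 with BMP2. Controls were at 2420, 2030, 1540 and 1780 normalized counts in replicates II, III, IV and VI, BMP2 samples at 6810, 7220, 5170 and 6270, and BMP4 samples at 3860, 3790 and 3700. Both ligands left the control range, with rises of 1.72 (SE 0.139, adjusted p = 1.84e-09) and 0.98 (SE 0.151, adjusted p = 1.43e-05) on the log2 scale. BMP5 samples (2380, 2510 and 2590) and BMP7 samples (2910, 2320 and 2600) overlapped the controls. Jund did not pass with BMP5 (log2 0.38, adjusted p = 0.0718), but did with the replicate number as a block (log2 0.27, adjusted p = 0.0223), without control replicate II (0.49, adjusted p = 0.0213) and without all samples numbered II (0.52, adjusted p = 0.0319). With BMP7 it passed (log2 0.44, adjusted p = 0.0320), and no longer did so without control replicate IV (adjusted p = 0.102), control replicate VI (0.0768), BMP7 replicate II (0.143) or BMP7 replicate VI (0.0792).

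Egr1, a zinc finger factor and a standard readout of MAP kinase activity, had 315, 395, 283 and 383 normalized counts in control replicates II, III, IV and VI. BMP2 samples were at 1250, 2120, 2210 and 2420, BMP5 samples at 477, 1280 and 1700, and BMP7 samples at 833, 1030 and 1810. All lay above the controls, and the rises were 2.51 (SE 0.320, adjusted p = 9.38e-07), 1.57 (SE 0.346, adjusted p = 0.00235) and 1.76 (SE 0.346, adjusted p = 0.000694) on the log2 scale. With BMP4 the values were 339, 526 and 590, of which 1 lay inside the control range, and Egr1 did not pass (log2 0.47, 95% interval -0.26 to 1.20, adjusted p = 0.246). It passed when all samples numbered II were left out (log2 0.67, adjusted p = 0.0190).

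Atf3, a stress-responsive ATF protein that pairs with Jun proteins, varied widely within groups. Controls ranged over 511, 207, 79.8 and 147 normalized counts in replicates II, III, IV and VI, and BMP2 samples over 3900, 2670, 2000 and 2040. BMP4 samples were at 840, 759 and 347, BMP5 samples at 686, 587 and 390, and BMP7 samples at 954, 466 and 392. Only the BMP2 samples cleared the whole control range. The log2 changes were 3.76 with BMP2 (SE 0.486, adjusted p = 1.09e-06), 1.68 with BMP4 (SE 0.524, adjusted p = 0.00885), 1.52 with BMP5 (SE 0.524, adjusted p = 0.0396) and 1.57 with BMP7 (SE 0.524, adjusted p = 0.0287). The BMP5 call was lost in 11 of 19 alternatives, among them leaving out control replicate III (adjusted p = 0.0628), IV (0.127) or VI (0.0920), or BMP5 replicate II (0.108), III (0.116) or VI (0.0529). The BMP7 call was lost without control replicate IV (adjusted p = 0.0941), control replicate VI (0.0687) or BMP7 replicate II (0.155).

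**Figure D2:**
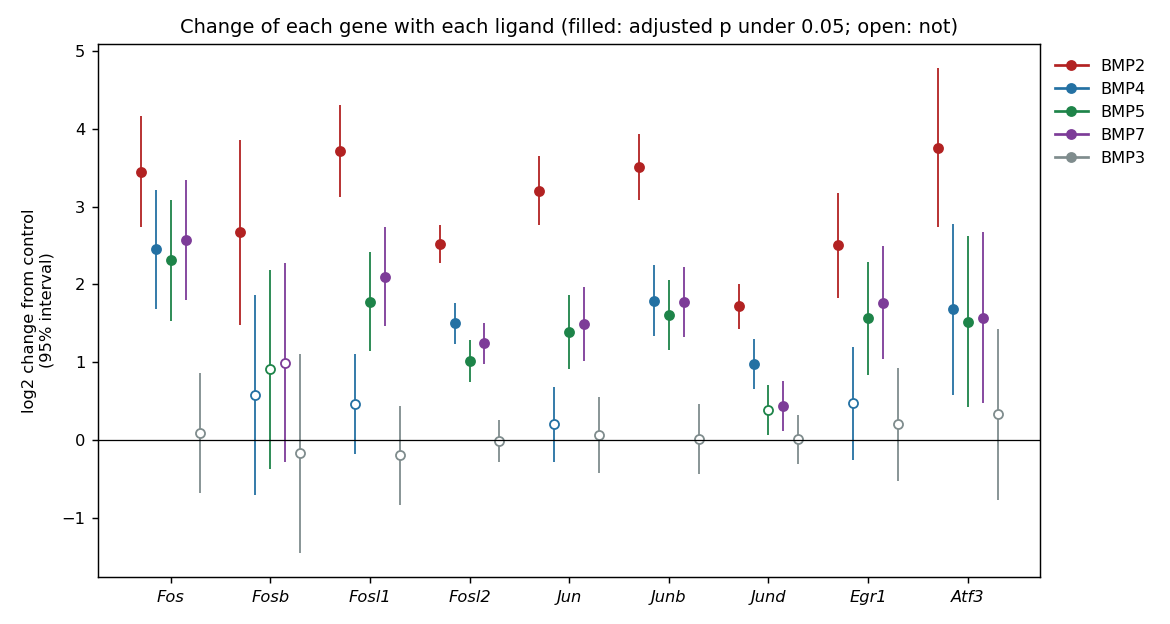
Log2 change from control of each gene with each of the 5 BMP ligands, with 95% intervals from the limma fit; filled points passed an adjusted p of 0.05 and open points did not. All 9 BMP2 points are filled, the 9 BMP3 points are open and near 0, and BMP4 is open for Fosb, Fosl1, Jun and Egr1.

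With BMP3, a ligand known mainly as an antagonist of other BMPs, none of the 9 genes passed, as none of the 14746 genes did by limma. Their values lay close to the controls, with Fos at 346, 315 and 418 and Jun at 2210, 1770 and 1240 normalized counts in replicates II, III and IV. The differences ranged from -0.20 to 0.33 on the log2 scale, and the 95% intervals reached from -1.45 to 1.43, so a change of that size in the most variable genes would not have been detected. At an unadjusted p under 0.05 none of the 9 and 110 of all genes passed. That is fewer than chance alone gives at this threshold, so the test may be too strict here. Over all genes edgeR and DESeq2 on recovered reads called 0 and 1.

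Direct tests between ligands placed BMP2 above the others. All 9 genes were higher with BMP2 than with BMP4, where 33.4% of all genes were called higher, and higher than with BMP5 (32.2% of all genes). Against BMP7 8 of 9 were higher (31.4% of all genes). These counts were 9, 6 and 6 against BMP4, BMP5 and BMP7 at equal totals, and 8, 7 and 7 by quantile normalization. Without single replicates they were 8 to 9, 7 to 9 and 7 to 8. Fos (log2 1.15, adjusted p = 0.0107) and Egr1 (0.94, adjusted p = 0.0237) overlapped between BMP2 and BMP5. Against BMP7 Egr1 did not pass (log2 0.74, 95% interval 0.02 to 1.47, adjusted p = 0.0690). The Egr1 difference passed in 6 of 19 alternatives, among them without BMP2 replicate II (adjusted p = 0.0258) and without BMP7 replicate VI (0.0188). The widest gaps to BMP4 were in Fosl1 (log2 3.25, SE 0.304, adjusted p = 2.37e-08) and Jun (3.00, SE 0.229, adjusted p = 1.55e-09). The narrowest were in Jund (0.74, SE 0.151, adjusted p = 0.000270) and Fos (1.00, SE 0.368, adjusted p = 0.0223). Fos values overlapped between BMP2 and BMP4, and the call was lost by quantile normalization (adjusted p = 0.0513), without BMP2 replicate IV (adjusted p = 0.0519) or VI (0.0649) and without BMP4 replicate II (0.108) or III (0.0765). Fos also overlapped between BMP2 and BMP7 (log2 0.88, adjusted p = 0.0439), and that call was lost in 10 of 19 alternatives. Among them were equal totals (log2 0.49, adjusted p = 0.235), quantile normalization (0.57, adjusted p = 0.191) and edgeR (0.79, adjusted p = 0.0714). It was also lost without BMP2 replicate III (adjusted p = 0.0623), IV (0.0925) or VI (0.115) and without BMP7 replicate II (0.134) or III (0.179).

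BMP4 and BMP5 differed in 5 of the 9 genes, in both directions, a share near that of all genes. Fosl1 (log2 -1.32, SE 0.325, adjusted p = 0.00180), Jun (-1.19, SE 0.245, adjusted p = 0.000373) and Egr1 (-1.10, SE 0.370, adjusted p = 0.0153) were lower with BMP4 than with BMP5, where 31.7% of all genes were called lower. Fosl2 (0.48, SE 0.135, adjusted p = 0.00521) and Jund (0.60, SE 0.161, adjusted p = 0.00336) were higher with BMP4, where 28.4% of all genes were. The Fosl1 and Jun calls held in each of 18 alternatives. The Egr1 call was lost without BMP4 replicate II (adjusted p = 0.0806), BMP5 replicate III (0.0669) or BMP5 replicate VI (0.107), and when only these 2 groups were fitted (0.0607). The Fosl2 and Jund calls were lost when every sample was scaled to the same total (adjusted p = 0.400 and 0.153) and after quantile normalization (0.481 and 0.121), with the direction kept.

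BMP4 and BMP7 differed in 4 of the 9 genes, a smaller share than that of all genes. Fosl1 (log2 -1.64, adjusted p = 0.000270), Jun (-1.29, adjusted p = 0.000178) and Egr1 (-1.29, adjusted p = 0.00558) were lower with BMP4 than with BMP7 (31.4% of all genes called lower), and these 3 calls held in each of 18 alternatives. Jund was higher with BMP4 (0.54, adjusted p = 0.00728; 28.4% of all genes called higher), but not with the same total (adjusted p = 0.215) or after quantile normalization (0.133). For Fos and Junb no difference between BMP4 and BMP5 or BMP7 passed. The 95% interval of BMP4 against BMP7 was -0.94 to 0.71 for Fos and -0.46 to 0.51 for Junb. BMP5 and BMP7, which are close relatives in sequence, did not differ in any of the 9 genes, where 0.0136% of all genes did (2 genes, and 6 with the replicate number as a block). Their differences were -0.32 to -0.05 with 95% intervals inside -1.45 to 1.29. None of the 9 had an unadjusted p under 0.05, against 347 of all genes, again fewer than chance alone gives. An F-test over the 5 BMP ligands found a difference in all 9 genes, and in 84.1% of all genes.

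The samples carry replicate numbers, and some of the 9 genes ranked with them. The ranks given here were picked from all 9 genes and all replicate numbers, and they were not tested. Same-numbered samples of most groups also deviated together over all genes tested, so the pattern is not shown to be particular to these genes. Atf3 was highest in replicate II in 6 of 6 groups, Fosb in 5 of 6, and Jun and Jund in 4 of 6. Egr1 went the other way, lowest in replicate II in 5 of 6 groups, as did Junb in 4 of 6. Fos, Junb and Egr1 were highest in replicate VI in 4 of the 5 groups that have one. Of the inducible heat shock genes, which handling can raise, Hspa1a was lowest in replicate II in 5 of 6 groups and Hspa1b in 4 of 6. Neither was highest there in any. These 2 genes are near-identical copies, whose reads the counting could split. Hspb1 was highest there in 2 groups and lowest in 2, and Hspd1 and Hspe1 were highest in 3 groups and lowest in 0. The rest of the heat shock list was lowest there in 2 to 5 groups and highest in 0. The part of handling in these patterns was not tested. With all samples numbered II left out, all 9 genes were called higher with BMP2 and all 9 with BMP5, while 6 were under BMP4 and 7 under BMP7.

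**Figure D3:**
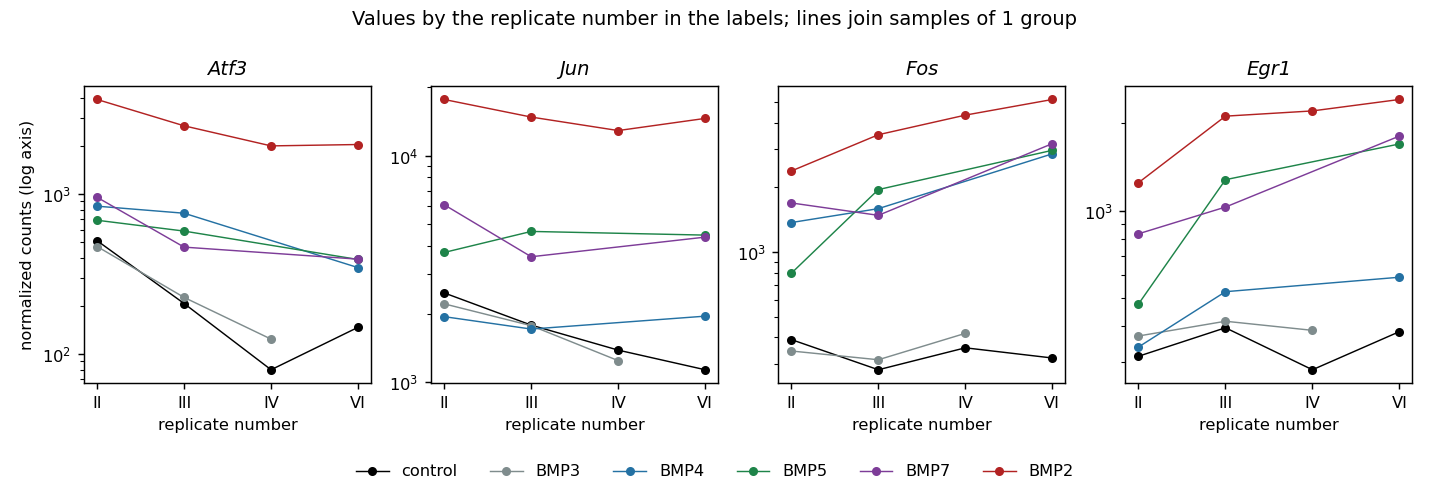
Normalized counts (log axes) of Atf3, Jun, Fos and Egr1 in the BMP table by the replicate number in the labels, with a line joining the samples of 1 group; the numbers have no order in time. Atf3 is highest at number II in all 6 groups, while Egr1 is lowest there in 5 of 6.

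Tgfb raised the set as a whole. All 8 genes tested rose, beside 27.4% of all 12959 genes (29.3% were called lower), by 0.70 to 4.09 on the log2(TPM + 1) scale, with a median of 2.45 against -0.04 over all genes. This scale understates the change of genes at low TPM. None of the 8 overlapped between the groups, nor did 64.6% of all genes. Fos stood at 7.77, 5.44 and 7.88 TPM in control replicates I, II and III and at 120, 127 and 157 TPM with Tgfb. It rose by 4.09 (SE 0.162, adjusted p = 1.01e-05), a ratio of means of 19.2. Fosl1 went from 0.238, 0.140 and 0.270 TPM to 6.39, 5.61 and 5.90 TPM, a change of 2.52 (SE 0.134, adjusted p = 2.52e-05) and a ratio of means of 27.6. Fosl2 was at 15.1, 15.0 and 16.5 TPM in controls and at 57.3, 54.6 and 59.6 TPM with Tgfb (1.81, adjusted p = 8.75e-06). The 8 epithelial markers summed to 3767 to 4118 TPM in controls and 13354 to 17809 TPM with Tgfb, mostly Krt8, Krt18 and Krt19, and Cdx2 fell (log2 -0.64, adjusted p = 0.00236), while the mesenchymal markers summed to 0.319 to 0.366 TPM and then 0.626 to 1.09 TPM, and the part of either in the result was not tested.

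The Jun genes differed among themselves under Tgfb. Jun was at 32.2, 27.5 and 17.2 TPM in controls and at 148, 128 and 128 TPM with Tgfb (2.39, SE 0.221, adjusted p = 0.000214). Junb was at 9.55, 8.21 and 14.1 TPM and then at 64.8, 64.8 and 92.4 TPM (2.70, SE 0.223, adjusted p = 0.000132). Jund was at 58.9, 63.7 and 58.8 TPM and then at 91.1, 100 and 105 TPM (0.70, SE 0.0769, adjusted p = 0.000457). Jund thus had the smallest rise of the 8 genes and was the most abundant of the 9 in each control. Egr1 rose from 7.96, 5.46 and 4.70 TPM to 49.1, 45.1 and 52.6 TPM (2.85, SE 0.173, adjusted p = 4.07e-05). Atf3 rose from 2.93, 2.84 and 4.78 TPM to 17.5, 19.0 and 16.6 TPM (2.08, SE 0.172, adjusted p = 0.000134). Fosb stayed under the minimum mean of 1 TPM, at 0.0353, 0.140 and 0 TPM in controls and 0.435, 0.314 and 0.284 TPM with Tgfb. Without a minimum, over 26322 genes, its change was 0.35 (SE 0.0691, adjusted p = 0.0137).

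**Figure D4:**
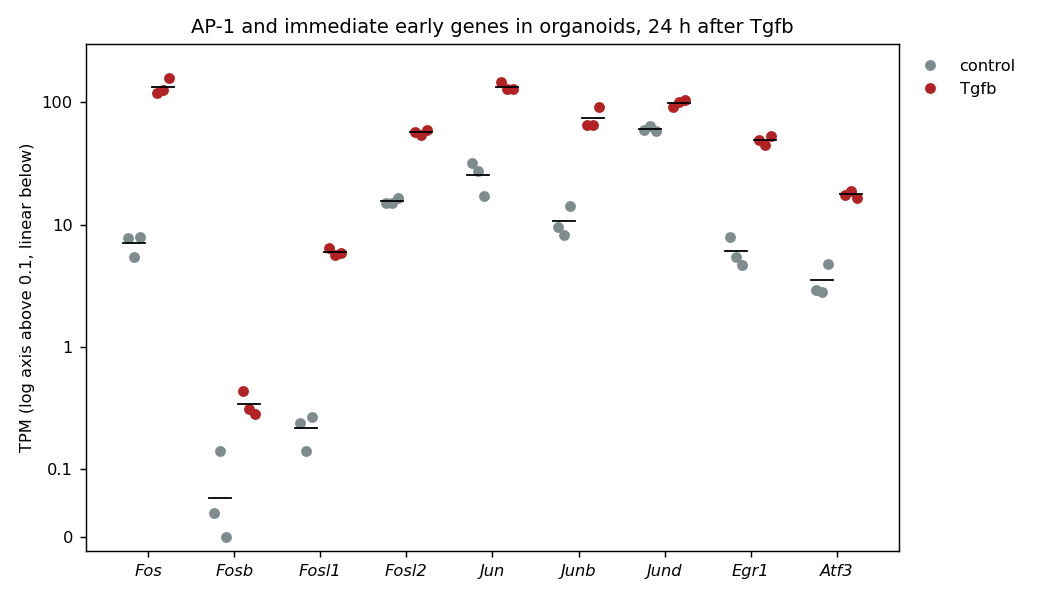
TPM of each gene in the 3 control and 3 Tgfb samples (axis logarithmic above 0.1 TPM and linear below); points are samples and black lines are group means. The Tgfb points lie above the control points for all 9 genes, with the smallest gap for Jund.

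Since TPM is scaled by length, it allows a look at the make-up of the AP-1 transcripts. The 7 Fos and Jun genes together held 115 to 124 TPM in controls and 481 to 549 TPM with Tgfb. The Fos genes made up 19.2% ± 2.14 of that sum in controls and 39.1% ± 1.45 with Tgfb (SD, n = 3 each), and the ranges did not overlap. Fos alone went from 5.89% ± 1.21 to 26.6% ± 2.05, while Jund went from 50.6% ± 2.76 to 19.5% ± 1.12 (SD, n = 3 each). The share of Jun was 21.3% ± 5.67 and then 26.8% ± 3.45, and its ranges overlapped. Shares were not tested, and they describe transcripts and not proteins.

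**Figure D5:**
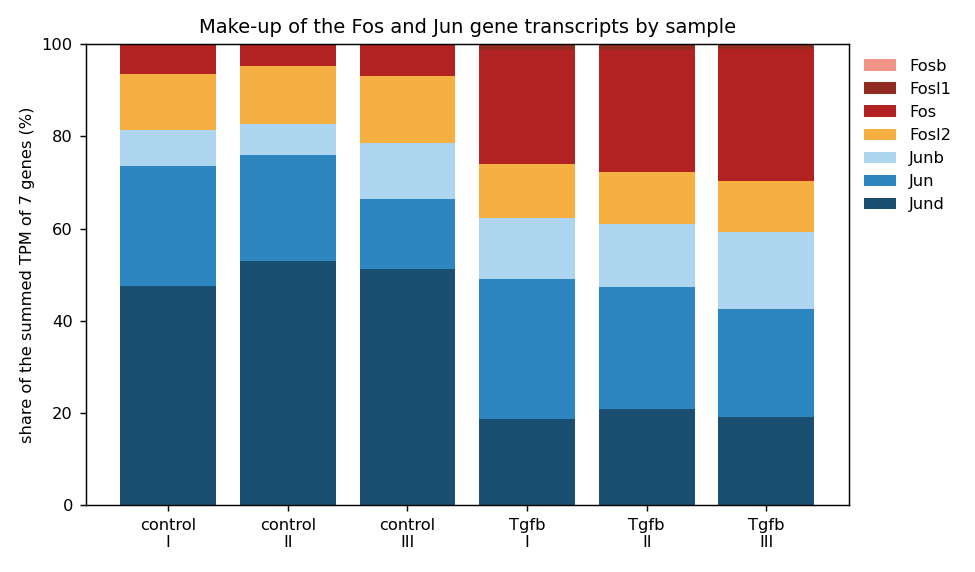
Share (%) of the summed TPM of the 7 Fos and Jun genes held by each gene, 1 bar per sample, for 3 control and 3 Tgfb samples. Jund holds 47.6% to 53.0% of the sum in the controls and 18.7% to 20.8% with Tgfb, and Fos holds 4.53% to 6.86% and 24.6% to 28.7%.

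Most other immediate early genes rose with BMP2, BMP5, BMP7 and Tgfb, and the list was mixed with BMP4. Of 28 on the list, 26 were tested in the BMP table, and 21 rose and 0 fell with BMP2 (1 fell without BMP2 replicate II or III, and 1 with the replicate number as a block), 16 and 0 with BMP5, 17 and 1 with BMP7, and 13 and 6 with BMP4, where 33.7% of all genes were called higher and 31.4% lower. Their medians were 2.76, 1.05, 0.99 and 0.57 on the log2 scale. With Tgfb 17 rose and 0 fell of 23 tested, beside 27.4% called higher and 29.3% called lower of all genes. These shares of all genes were 36.8% and 38.4% with BMP2, 16.5% and 9.87% with BMP5, and 19.2% and 13.2% with BMP7. Rhob, a small GTPase, rose from 487 ± 116 normalized counts (SD, n = 4) to 17200 ± 1414 with BMP2 (SD, n = 4). Dusp1, a phosphatase of MAP kinases, rose by 4.96 with BMP2 on the log2 scale (SE 0.456, adjusted p = 1.11e-08). With BMP4 Klf4, a factor of differentiated epithelium, rose by 3.94 (adjusted p = 6.49e-13), while Myc, a factor of proliferating crypt cells, fell by 1.59 (adjusted p = 7.20e-05) and Ier5l fell by 2.91 (adjusted p = 4.48e-07). The gene that fell with BMP7 was Nr4a2 (log2 -0.69, adjusted p = 0.0448), named after its value was seen. It did not pass without control replicate II, IV or VI, or without BMP7 replicate III or VI.

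The genes listed here as AP-1 partners, a broad list of bZIP factors, moved in both directions. Whether each of them pairs with AP-1 proteins was not tested. Of 16 partner genes tested, 10 rose and 2 fell with BMP2 (36.8% and 38.4% of all genes), and 10 and 2 with BMP4 (33.7% and 31.4%). With BMP5 3 rose and 2 fell (5 and 2 with the replicate number as a block), beside 16.5% and 9.87% of all genes. With BMP7 5 rose and 2 fell (19.2% and 13.2% of all genes). The BMP5 counts lie near the shares of all genes. The medians were 0.63, 0.71, 0.02 and 0.20, and the BMP5 median turned to -0.02 at equal totals and -0.03 by quantile normalization. Maff, a small Maf protein without an activation domain, rose from 201 ± 63.0 (SD, n = 4) to 2175 ± 452 normalized counts with BMP2 (SD, n = 4). With BMP4, Maf, a large Maf protein, rose from 192 ± 43.8 (SD, n = 4) to 7033 ± 908 (SD, n = 3). Creb3l1, a membrane-bound factor of secretory cells, fell with all 4 ligands, by 3.10 with BMP2 (adjusted p = 2.25e-13) and by 0.68 to 1.31 with the others. With Tgfb 7 rose and 2 fell of 15 tested, beside 27.4% called higher and 29.3% called lower of all genes. The 2 that fell were Creb3l1 (log2 -1.37) and Atf5 (-1.28).

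Upstream, Elk3, a partner of SRF, was low in controls at 67.0 ± 4.24 normalized counts (SD, n = 4) and rose to 3542 ± 403 with BMP2 (SD, n = 4). It reached 807 ± 363 under BMP5 and 988 ± 231 under BMP7 (SD, n = 3 each). Of the 18 SRF, Elk and MAP kinase genes, 14 rose and 1 (Mapk9) fell with BMP2, 6 and 3 with BMP4, 4 and 0 with BMP5 and 5 and 0 with BMP7. Over all genes 33.7% were called higher with BMP4, close to the share of this list, while 16.5% were under BMP5, 19.2% under BMP7 and 36.8% under BMP2. With the replicate number as a block 8 rose with BMP5 and 9 with BMP7. Without BMP5 replicate III 2 rose with BMP5, and without BMP7 replicate III 8 rose with BMP7. Their median with BMP4 was 0.10 and turned to -0.30 at equal totals and -0.09 by quantile normalization. With Tgfb 9 of 18 rose (27.4% of all genes), led by Elk3 (log2 4.41, adjusted p = 2.43e-06).

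Feedback inhibitors of MAP kinases rose in part. Of 14 tested, 12 rose and 1 (Spred1) fell with BMP2 (36.8% and 38.4% of all genes). With BMP5 8 rose and 0 fell (16.5% and 9.87% of all genes), and with BMP7 8 and 0 (19.2% and 13.2%). With BMP4 6 rose and 4 fell, near the 33.7% and 31.4% of all genes. With Tgfb 9 rose and 1 fell of 12 (27.4% and 29.3% of all genes). Dusp4, a nuclear MAP kinase phosphatase, rose from 696 ± 151 to 12425 ± 2663 normalized counts with BMP2 (SD, n = 4 each). Dusp10, a phosphatase of JNK and p38, rose by 4.71 with BMP2 (SE 0.327, adjusted p = 2.20e-10), 1.97 with BMP5 and 2.21 with BMP7. The median with BMP4 was 0.29, and -0.10 with the same total. Spred1 fell with Tgfb by 0.22 (adjusted p = 0.0336), and that call was lost without control replicate II (0.113) or III (0.0977) and without Tgfb replicate I (0.0859), II (0.0567) or III (0.0834).

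Of the genes that textbooks list as AP-1 targets, most rose with BMP2, BMP5, BMP7 and Tgfb. Of 19 tested, 16 rose and 3 fell with BMP2, 14 and 0 with BMP5, 14 and 1 (Vim) with BMP7, 8 and 6 with BMP4, and 14 and 0 of 17 with Tgfb. The BMP4 counts lie near the shares of all genes, 33.7% higher and 31.4% lower. Those shares were 36.8% and 38.4% with BMP2, 16.5% and 9.87% with BMP5, 19.2% and 13.2% with BMP7, and 27.4% and 29.3% with Tgfb. The medians for BMP2, BMP5, BMP7, BMP4 and Tgfb were 3.08, 1.60, 1.72, 0.74 and 2.15 on the log2 scale. Plaur, the urokinase receptor, rose from 340 ± 84.7 to 7768 ± 1144 normalized counts with BMP2 (SD, n = 4 each). Sprr1a, a protein of stressed and stratified epithelium, rose from 490 ± 209 (SD, n = 4) to 14135 ± 3839 with BMP2 (SD, n = 4), and reached 3180 ± 771 under BMP4 (SD, n = 3). Krt6a, a keratin of wounded epithelium with near-identical relatives whose reads the counting could split, was at 3 reads or fewer in each control and was at least 136.5-fold higher with BMP2 by group mean. With it at this bound the 4 BMP medians were the same. Ccnd1, a cyclin of proliferating cells, fell by 2.48 with BMP2 (adjusted p = 8.58e-11) and by 1.20 with BMP4 (adjusted p = 7.28e-06). Cd44, a receptor of crypt and migrating cells, was among the 6 genes that fell with BMP4 (log2 -1.40, SE 0.124, adjusted p = 1.99e-08).

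Heat shock genes, which handling can raise, were split. Of 11 tested, 6 rose and 3 fell with BMP2 (36.8% and 38.4% of all genes). With BMP4 3 rose and 4 fell (5 and 4 with the block), near the 33.7% and 31.4% of all genes. With BMP5 3 rose and 2 fell (5 and 2 with the block, and 1 that fell without BMP5 replicate VI), beside 16.5% and 9.87%. With BMP7 they were 5 and 2 (19.2% and 13.2% of all genes), and with Tgfb 5 and 3 of 10 (27.4% and 29.3%). Hspb1, a small heat shock protein, rose from 5.13 ± 3.98 to 535 ± 248 normalized counts with BMP2 (SD, n = 4 each), while the mitochondrial chaperones Hspe1 and Hspd1 fell by 3.08 and 2.74 on the log2 scale. The summed level of the 11 genes was 105158 to 118731 in controls and 85242 to 96219 with BMP2, and rests mostly on constitutive chaperones (Hspa8 alone was 48.6% of it in controls). The number that rose with BMP4 was 1 without control replicate II and 0 without BMP4 replicate VI, the number that rose with BMP5 was 1 without BMP5 replicate III and 5 without control replicate IV, and the numbers that rose and fell with BMP7 were 3 and 1 without BMP7 replicate VI.

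The genes whose values ran closest to each of the 9 over the 20 samples of the BMP table were found by Pearson r of log2(value + 1), among genes with a mean of at least 50. These are descriptions, since the samples share ligands, size factors and replicate numbers. Fos ran closest to Lratd1 (r = 0.981), Fosl1 to Tuba1a (0.982), Fosl2 to Asap1 (0.993), Jun to Tpm4 (0.987), Junb to Sbno2 (0.994), Jund to Kcmf1 (0.985) and Egr1 to Errfi1 (0.974). Atf3 ran closest to Pmaip1 (0.977) and Dusp1 (0.973). Fosb ran closest to Zfp277 (0.921), Oga (0.916) and Atf3 (0.904), the only other gene of the 9 to appear among the 3 closest of any.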

How the data were processed

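Gene expression was measured by mRNA sequencing (per the labels' protocols with a KAPA mRNA kit and, on a NextSeq 500, in single-end mode). Trim Galore, Salmon, DESeq2 and build GRCm39 are named in the submitters' processing notes, without versions; the use of strand in counting is not given in the sources used here, so antisense overlap cannot be told apart. In the BMP table the deposited signal values were gene counts over a size factor for each sample, rounded to 3 significant digits, as read from the values. Whole reads were recovered from it: 180721 values of at most 20 reads were checked, 100% were whole within 0.1 read, and 1 read was worth 0.826 to 1.28. The Tgfb table was deposited by the authors in TPM, as its columns sum to 1000000, with no depth. The labels mention 2 sequencing runs and assign no sample to them.

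Log2(value + 1) was fitted with limma 3.58.1 (R 4.3.3) with an intensity trend, two-sided, over the 6 groups of the BMP table (mean of at least 10, 14746 genes) and over the Tgfb table alone (mean of at least 1 TPM, 12959 genes), with Benjamini-Hochberg adjustment over all genes. The Tgfb and BMP tables were normalized separately and never compared in a test. Groups came from the labels, with 0 columns unmapped. The design foresaw edgeR for raw counts; as the tables used here hold none, edgeR 4.0.16 and DESeq2 1.42.0 were run on recovered reads as alternatives. The scripts were tested on simulated data. Within each group, at least 98% of genes differed in value between any 2 samples, so no column was a copy of another. A library sequenced again would also differ in most values, so this cannot show that each sample was a separate library.

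The 9 genes and the lists (AP-1 partners, other immediate early genes, SRF and MAP kinase genes, feedback inhibitors, AP-1 targets, heat shock genes, and epithelial, mesenchymal, immune and endothelial markers) were chosen with earlier results of these data known. All 9 genes are named; from the lists, the 3 with the largest change each way among those past the threshold without overlap of groups, and other genes only where said; 1 gene that the rule names is not reported here. Same-numbered samples deviated together, by the correlation of deviations from group means, for controls with BMP4 (0.190 to 0.225), BMP5 (0.158 to 0.262), BMP7 (0.236 to 0.294) and BMP3 (0.281 to 0.553), and for BMP4 with BMP5 and BMP7 and BMP5 with BMP2 and BMP7, so the titles' numbers were taken to pair these; blocked values stand beside results where they change a call.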

Additional observations from a re-analysis of the deposited data

Results flagged for a closer look

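In 18 groups of 4 samples (9 genes in the controls and with BMP2), 3 had a sample far from the others, where chance gives about 1 in 20. Fosb was at 27.5 normalized counts in control replicate II, with the other 3 controls down to 3.32. Fosl2 was at 2940 in control replicate II, with the lowest control at 2220. Fosl1 was at 438 in BMP2 replicate IV, with the highest BMP2 sample at 523. Of these, Fosb and Fosl2 are in the same sample, and the Fosb change with BMP7 passed without it, as given above.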

How the results depend on the processing

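Over 64 member changes and 1170 alternative values, 1109 kept their direction and their side of the threshold, 47 no longer passed, 12 came to pass and 2 turned sign; over 154 changes of other named genes and 2828 values the numbers were 2804, 24, 0 and 0. The 2 were Jun with BMP4, at -0.20 with the same total in every sample and -0.065 by quantile normalization. The number of genes changed with BMP3 was 0, and 2 when only the 2 groups were fitted, 1 with DESeq2 and 0 to 1 without single replicates. For BMP5 against BMP7 it was 2, and 0 with a pseudocount of 0.1, 4 with a pseudocount of 5, 0 with a mean of at least 50, 4 with no filter, 1 with the same total, 1 after quantile normalization, 6 with the replicate block, 1 without the trend, 4 with edgeR, 23 with DESeq2 and 0 to 9 without single replicates. For BMP5 against control it was 3884, and 2515 to 4298 without single replicates, the lowest without BMP5 replicate III and 2532 without VI. Of the 9 genes, the number higher with BMP4 than with BMP5 was 2, and 0 at equal totals and 0 by quantile normalization; against BMP7 it was 1, and 0, 0, 1 to 2 without single replicates (2 without BMP7 replicate II) and 2 with all samples numbered II left out, an alternative chosen after seeing the data. The number higher with BMP2 than with BMP5 or BMP7 (9 and 8) was 6 and 6 with the same total. With the same total, the numbers that fell with BMP2 were 4 AP-1 partners, 2 other immediate early genes, 5 upstream genes and 5 heat shock genes, and with BMP4 5 partners and 10 upstream genes fell, 2 feedback inhibitors rose and 0 heat shock genes rose. The cause of these changes was not tested. Groups compared whose lowest same-number correlation was at most 0.018 were not taken as paired. These were controls with BMP2 (lowest 0.018, mean 0.236) and BMP2 with BMP4 (-0.04, mean 0.177) or BMP7 (-0.107, mean 0.094). The Tgfb samples were also among them (0.004, mean 0.029). The means over differently numbered samples were -0.078, -0.059, -0.031 and -0.014 in this order, so pairing there was not settled. With the replicate block Egr1 passed between BMP2 and BMP7 (log2 0.77, adjusted p = 0.00475). The block changed no other call of the 9 genes than those given here and above. Depth limits Fosb most, with 3.32 normalized counts in its lowest control.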
